A study of Mus musculus with 24 samples.

Results

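Hypoxia-inducible factor 1 alpha (HIF1A) is the oxygen-regulated subunit of a transcription factor that pairs with ARNT and binds a short element in the promoters of its targets. When oxygen is present, the prolyl hydroxylases encoded by *Egln1*, *Egln2* and *Egln3* modify HIF1A so that VHL, the substrate receptor of a ubiquitin ligase, marks it for degradation. In T cells the factor is also raised by receptor signalling, and it is known there for driving glycolysis. Most of this control acts on the HIF1A protein, which was not measured here. The group described here holds *Hif1a*, its regulators *Vhl*, *Egln1*, *Egln2* and *Egln3*, and 5 genes known as targets, *Bnip3*, *Pdk1*, *Vegfa*, *Ddit4* and *Ero1a*. *Egln1* and *Egln3* are themselves known targets. The 10 genes were chosen by role among the 55414 genes of the table, and all 10 were among the 10566 genes that passed the filter on low counts.

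RNA of splenic Tconv CD4+ cells (CD4+ CD25-, called TE in the labels) was counted in 24 libraries, 6 for each of 4 groups. All donors had C57BL/6J nuclear DNA, and their mitochondrial DNA came from C57BL/6J (mtDNA-B6, labelled WT) or from the NZB strain (mtDNA-NZB). Cells of each haplotype were left at rest or activated for 72 h with beads that engage CD3 and CD28. The methods name IL-2 together with the beads. The methods name young adult males for most experiments of the study, without tying age or sex to these libraries. The number of samples per model stated beside the study's expression plots is below the number of libraries here, so libraries of a group may share a mouse. The mice behind each library, the oxygen level and the time in culture of the resting cells are not given in the sources used here, and p-values measure only the spread between these libraries, which may be technical. Libraries held 51409 to 6449395 unique molecule counts, and levels are given as CPM, counts scaled to a library of 1e6. Resting mtDNA-NZB replicate 2 is the library of 51409 counts, where 1 molecule is worth 16.9 CPM. All 9 markers of T cell identity were detected in every group. The summed level of 10 markers of neutrophils and their precursors ran from 452 to 23004 CPM at rest and from 8.05 to 201 CPM after activation, and 10 of 10 fell in both haplotypes. The 10 myeloid markers summed to 1063 to 4586 CPM at rest and to 190 to 354 CPM after activation, and all 9 that were tested fell in both haplotypes. The 9 B cell markers summed to 5776 to 17548 CPM at rest and to 1146 to 6466 CPM after activation, although 1 of the 9, *Ighm*, passed as lower in each haplotype and *Blnk* passed as higher in mtDNA-B6 cells. Of the 9 erythroid markers tested, 8 fell in both haplotypes, with a median log2 fold change of -5.75 in mtDNA-B6 and -6.09 in mtDNA-NZB cells. At rest 1 of these 9, *Klf1*, was lower in mtDNA-NZB than in mtDNA-B6 cells (log2 difference -1.88, adjusted p = 0.046 by edgeR's quasi-likelihood test). Its levels were 13.9 ± 15.7 and 59.8 ± 36.0 CPM (SD, n = 6). Over all genes, 0 passed at rest without resting mtDNA-NZB replicate 5 and 0 in a fit of the 12 resting libraries alone. The CD8 T cell, platelet, NK cell, Treg and T cell activation lists had higher mean sums after activation. The mean sum of the 4 Treg markers went from 243 to 592 CPM in mtDNA-B6 and from 295 to 718 CPM in mtDNA-NZB libraries. In mtDNA-B6 cells *Tnfrsf18* rose and *Ikzf2* fell, whereas *Tnfrsf18* and *Foxp3* rose in mtDNA-NZB cells. The 9 T cell activation markers went from 374 to 724 and from 435 to 826 CPM, in the same order. Among them were 5 increases and 2 decreases (*Cd69* and *Myc*) in mtDNA-B6 cells, against 4 and 1 (*Cd69*) in mtDNA-NZB cells. The 2 CD8 T cell markers rose in both haplotypes, with a mean sum of 71.6 and 282 CPM in resting and activated mtDNA-B6 libraries and of 69.3 and 231 CPM in mtDNA-NZB libraries. Of the 3 platelet markers tested, 2 rose in each haplotype (mean sum 22.2 and 202 CPM, and 24.1 and 120 CPM). Only *Pf4* rose in both. Of the 4 NK cell markers tested, 2 rose in mtDNA-B6 and 1 in mtDNA-NZB cells, and *Klrb1c* fell in both (-1.99 and -2.79). These summed levels moved with activation, and their part in the results below was not tested. In bulk RNA, fewer cells of a type and less RNA per cell cannot be told apart.

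The element bound by HIF1 has the core ACGTG or GCGTG. Promoters of 300 bases, 250 before and 50 after the start of the canonical GENCODE transcript, were read from the GRCm39 genome, and both strands were searched. ACGTG occurred in 7 of the 10 promoters, against 20.7% of 21574 promoters of protein-coding genes, and GCGTG occurred in 5 of the 10, against 37.0%. An ACGTG can lie inside the E-box CACGTG, which was present in 4 of the 10 and in 7.82% of all promoters. *Vhl* and *Vegfa* held neither core in this window. A window of 30 bases is shown for each of the 3 genes that rose on activation in both haplotypes and for *Hif1a*, in the direction of transcription, with the ACGTG core in capitals.
*Egln1*: actacaaatcacACGTGgaaccgacagtct
*Egln3*: tgtgcatctcagACGTGagatccaggtttt
*Bnip3*: cgcacgcgccgcACGTGccacacgctcccc
*Hif1a*: acacagacaagcACGTGagcggggcagctc
The *Egln1* window is chr8:125677016-125677045 on the minus strand, with the core starting 168 bases before the transcript. The *Egln3* window is chr12:54250872-54250901 on the minus strand, with the core 216 bases before the start. The *Bnip3* window is chr7:138511325-138511354 on the minus strand, 89 bases before the start, and this promoter also held 3 GCGTG. The *Hif1a* window is chr12:73954495-73954524 on the plus strand, 63 bases before the start of its canonical transcript. In *Egln1*, *Bnip3* and *Hif1a* the core shown is part of CACGTG. A match describes these letters only and is not a measured binding site.

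Activation raised 5 of the 10 genes in mtDNA-B6 cells and lowered 0, where 46.9% of all genes tested passed, 22.4% as higher and 24.5% as lower. In mtDNA-NZB cells it raised 3 and lowered 0, against 53.5% of all genes, 25.2% as higher and 28.4% as lower. Passing means that edgeR's quasi-likelihood test gave an adjusted p no greater than 0.05. The median log2 fold change of the 10 genes was 0.40 in mtDNA-B6 and 0.34 in mtDNA-NZB cells, and that of all genes was -0.03 and -0.06. *Egln1*, *Egln3* and *Bnip3* rose in both haplotypes, and *Hif1a* and *Egln2* passed in mtDNA-B6 cells.

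**Figure D1:**
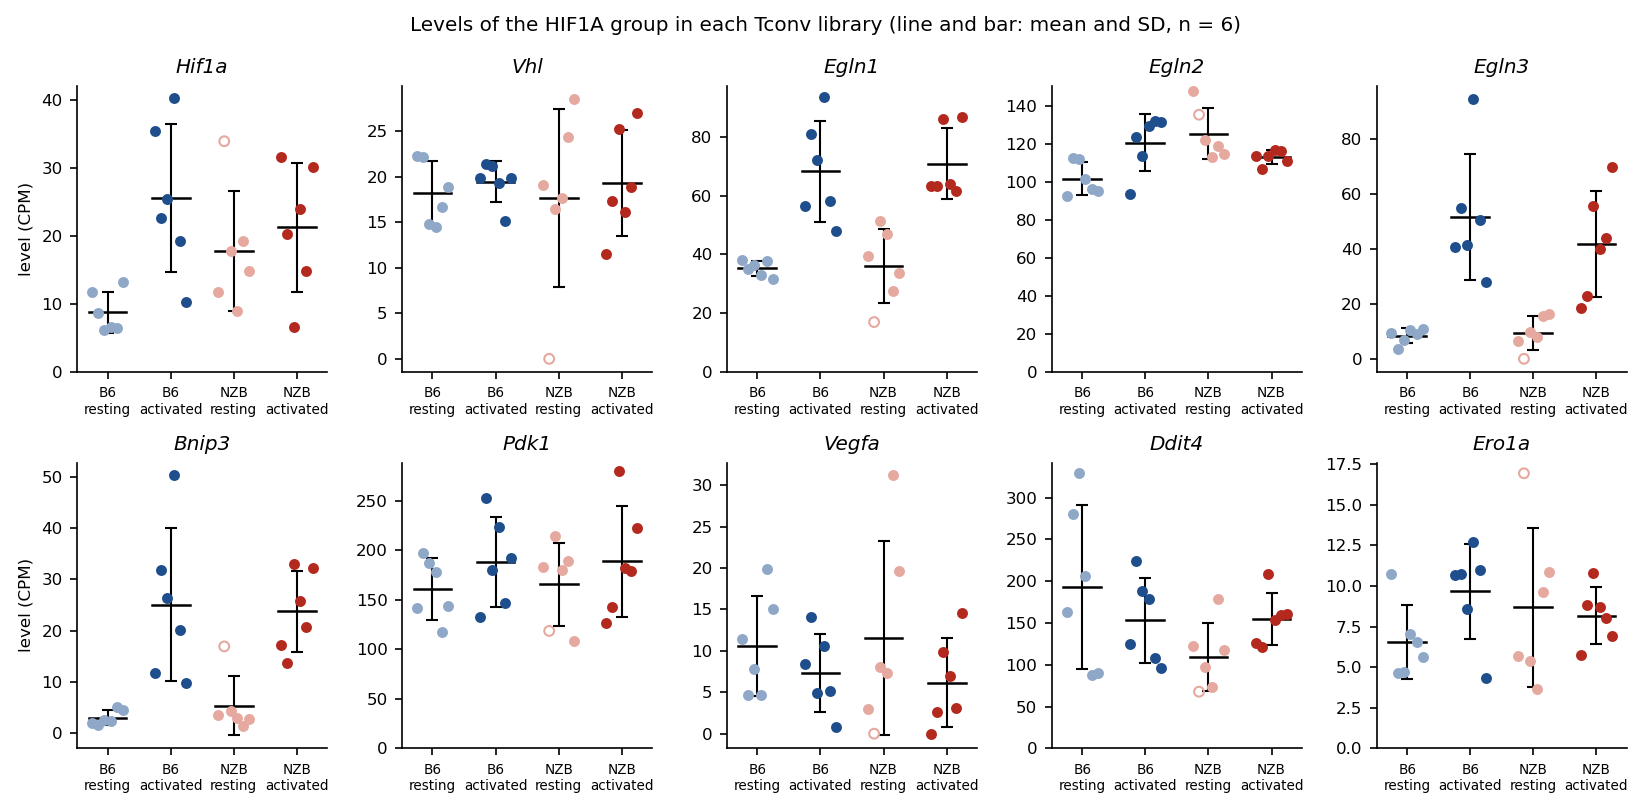
Level of each gene in CPM (vertical axis, starting at or just below 0) in every library of the 4 groups (horizontal axis), with the mean and SD of 6 libraries as a line and a bar and the library of 51409 counts as an open circle. *Egln1* and *Egln3* are higher in every activated library than in any resting library of the same haplotype, whereas the 4 groups of *Vhl* and *Pdk1* overlap.

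Of the 3 hydroxylase genes, *Egln1* encodes PHD2, the main oxygen sensor of the family. In mtDNA-B6 cells its level had a lowest, median and highest value of 31.6, 35.8 and 37.9 CPM at rest and of 47.9, 65.1 and 93.5 CPM after activation. In mtDNA-NZB cells these were 16.9, 36.6 and 51.4 CPM at rest and 61.6, 63.7 and 86.6 CPM after activation. The resting and activated libraries did not overlap in either haplotype, and the value of 16.9 CPM is a single molecule. The log2 fold change was 0.95 (standard error 0.16, adjusted p = 2.63e-05) in mtDNA-B6 and 0.85 (standard error 0.17, adjusted p = 0.000142) in mtDNA-NZB cells.

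*Egln3* encodes PHD3, the hydroxylase known for its strong induction by HIF. Its level ran from 3.64 through a median of 9.35 to 10.9 CPM in resting mtDNA-B6 libraries and from 28.1 through 46.2 to 94.7 CPM in activated ones. In mtDNA-NZB cells it ran from 0 through 8.79 to 16.5 CPM at rest and from 18.7 through 42.0 to 69.9 CPM after activation. The highest resting and the lowest activated mtDNA-NZB library were close to each other but did not overlap. The lowest activated value came from 13 molecules, and 0 molecules were counted in the resting library of 51409 counts. The log2 fold change was 2.62 (standard error 0.32, adjusted p = 3.91e-07) in mtDNA-B6 and 2.00 (standard error 0.34, adjusted p = 2.46e-05) in mtDNA-NZB cells. The difference of these responses was -0.62 (95% interval -1.59 to 0.35, adjusted p = 0.562), which leaves a difference of either sign within its error.

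*Egln2* encodes PHD1, another hydroxylase of the family. In mtDNA-B6 cells it stood at 92.8, 98.9 and 113 CPM (lowest, median and highest) at rest and at 93.9, 127 and 132 CPM after activation, so that the groups overlapped. The log2 fold change was 0.25 (standard error 0.09, adjusted p = 0.0312). This call was lost in 14 of the alternative fits, among them the second count table (adjusted p = 0.139), a model that includes the library set (0.065) and fits without activated replicate 2, 4, 5 or 6 or without resting replicate 1 or 5 (0.053 to 0.074). In mtDNA-NZB cells *Egln2* stood at 113, 121 and 148 CPM at rest and at 107, 114 and 117 CPM after activation (log2 fold change -0.14, standard error 0.10, adjusted p = 0.244). *Cyp2t4* on the opposite strand overlaps the last 1000 bases of *Egln2*, and whether counting used strand is not given in the sources used here.

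*Vhl* did not pass in either haplotype. Its mean level was 18.2 ± 3.45 CPM (SD, n = 6) at rest and 19.4 ± 2.28 CPM (SD, n = 6) after activation in mtDNA-B6 cells, and 17.7 ± 9.77 and 19.3 ± 5.81 CPM (SD, n = 6) in mtDNA-NZB cells. The log2 fold changes were 0.09 (95% interval -0.30 to 0.48) and -0.04 (95% interval -0.46 to 0.37). Among the 4 regulators *Vhl* had the fitted changes nearest to 0. The long noncoding gene *1700015O11Rik* overlaps its 3′ end on the opposite strand, and a processed pseudogene, *Vhl-ps1*, is annotated and may share reads with it.

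*Hif1a* had the largest fitted difference of responses between the haplotypes among the 10 genes. In mtDNA-B6 cells the lowest, median and highest levels were 6.07, 7.63 and 13.2 CPM at rest and 10.3, 24.04 and 40.3 CPM after activation. Of the activated mtDNA-B6 libraries, 5 lay above every resting one, and replicate 6 lay within the resting range. In mtDNA-NZB cells the resting levels were 8.95, 16.3 and 33.9 CPM and the activated levels 6.54, 22.1 and 31.6 CPM, so that activated replicate 3 was below every resting library. The value of 33.9 CPM rests on 2 molecules, and without that library the resting mean was 14.5 ± 4.25 CPM (SD, n = 5). The log2 fold change was 1.56 (standard error 0.32, adjusted p = 0.000314) in mtDNA-B6 and 0.49 (standard error 0.34, adjusted p = 0.227) in mtDNA-NZB cells. The difference of the responses was -1.07 (standard error 0.47, unadjusted p = 0.0309, adjusted p = 0.304), which did not pass. It was -1.22 (adjusted p = 0.187) over 21 libraries (without resting mtDNA-NZB replicates 2 and 6 and activated replicate 6) and -0.83 (adjusted p = 0.565) with the library set in the model. With the number in the sample labels as a replicate block the difference was smaller in size than these, as given in the closing section. The mtDNA-B6 response itself was 1.26 (adjusted p = 0.0233) with the library set in the model. The long noncoding gene *Gm15283* overlaps the 3′ end of *Hif1a* on the opposite strand.

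**Figure D2:**
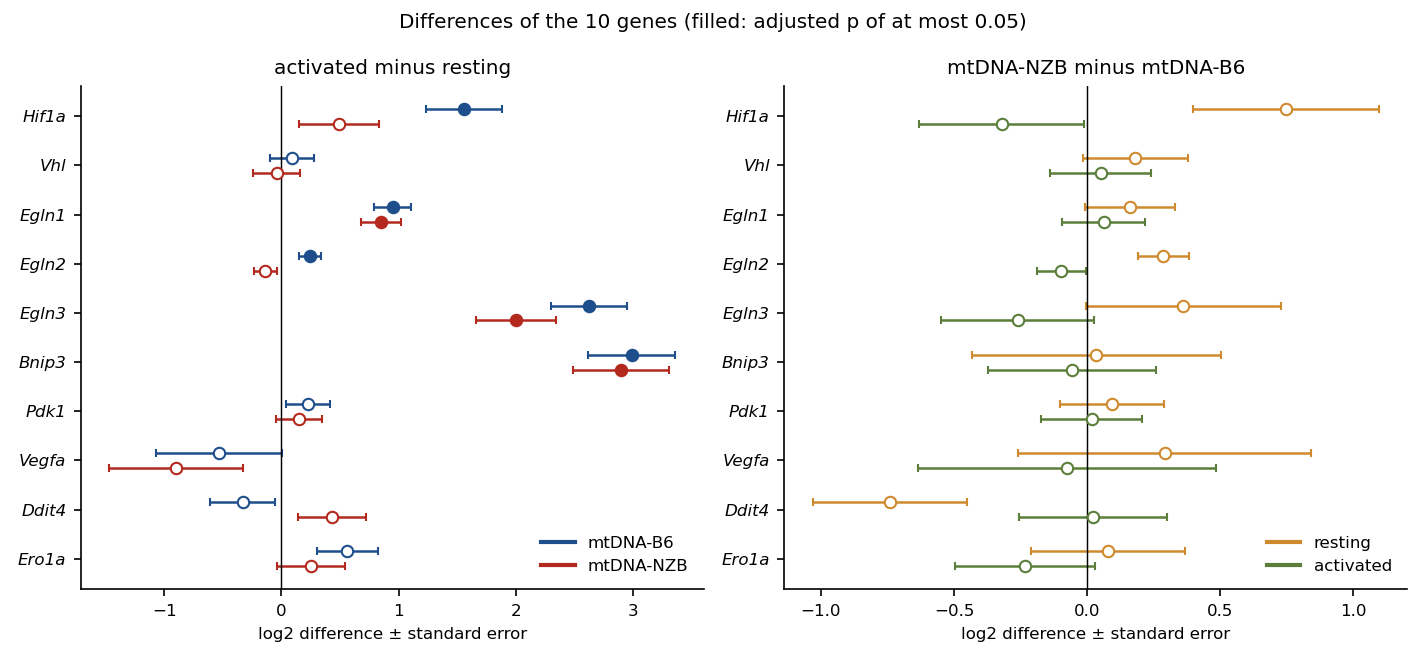
Log2 differences of the 10 genes with their standard errors, activated minus resting in each haplotype (left) and mtDNA-NZB minus mtDNA-B6 in each state (right), with points filled at an adjusted p of at most 0.05. *Bnip3*, *Egln3* and *Egln1* are filled for both haplotypes on the left, and no point is filled on the right.

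Of the 5 targets, *Bnip3*, which encodes a receptor for the removal of mitochondria by autophagy, had the largest change of all 10 genes in both haplotypes. Its level in mtDNA-B6 libraries was 1.65, 2.52 and 5.14 CPM (lowest, median and highest) at rest and 9.90, 23.3 and 50.2 CPM after activation. In mtDNA-NZB libraries it was 1.37, 3.37 and 16.9 CPM at rest and 13.7, 23.2 and 33.0 CPM after activation. The value of 16.9 CPM is a single molecule in the library of 51409 counts, and the other 5 resting mtDNA-NZB libraries reached at most 4.37 CPM, below all activated ones. The log2 fold change was 2.99 (standard error 0.37, adjusted p = 4.48e-07) in mtDNA-B6 cells, a 7.94-fold rise, and 2.90 (standard error 0.41, adjusted p = 2.04e-06) in mtDNA-NZB cells, a 7.46-fold rise. The difference of the responses was -0.09 (95% interval -1.27 to 1.09).

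The other 4 targets did not pass in either haplotype in the fit without a replicate block. *Pdk1* encodes a kinase that inhibits pyruvate dehydrogenase. It averaged 161 ± 31.4 CPM at rest and 188 ± 45.5 CPM after activation in mtDNA-B6 cells and 165 ± 42.3 and 189 ± 55.9 CPM in mtDNA-NZB cells (SD, n = 6), with overlapping libraries. Its log2 fold changes of 0.23 (95% interval -0.17 to 0.62) and 0.15 (95% interval -0.26 to 0.56) both have an upper bound below a log2 change of 1. *Ero1a* encodes an oxidase of protein folding in the endoplasmic reticulum. It stood at 4.63, 6.10 and 10.7 CPM (lowest, median and highest) at rest and at 4.36, 10.7 and 12.7 CPM after activation in mtDNA-B6 cells, and at 3.64, 7.65 and 16.9 CPM and 5.75, 8.38 and 10.8 CPM in mtDNA-NZB cells, with overlap in both. It had a log2 fold change of 0.56 (standard error 0.26, adjusted p = 0.0799) in mtDNA-B6 and 0.25 (standard error 0.29, adjusted p = 0.48) in mtDNA-NZB cells. The mtDNA-B6 value passed without activated replicate 6 (0.70, adjusted p = 0.0231) or without resting replicate 1 (0.77, adjusted p = 0.0225).

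*Vegfa* encodes the angiogenic growth factor VEGF-A. At rest it ran from 4.63 through 9.62 to 19.9 CPM in mtDNA-B6 and from 0 through 7.67 to 31.2 CPM in mtDNA-NZB libraries, and after activation from 0.79 through 6.76 to 14.1 CPM and from 0 through 5.03 to 14.5 CPM. The groups overlapped, and the log2 fold changes were -0.53 (standard error 0.54, adjusted p = 0.433) and -0.90 (standard error 0.57, adjusted p = 0.189). The mtDNA-NZB value ran from -1.39 without activated replicate 6 to -0.37 without resting replicate 5. *Ddit4* encodes REDD1, a brake on mTORC1 that is also a stress and glucocorticoid-responsive gene. Its level in resting mtDNA-B6 libraries spread from 88.1 to 329 CPM, with a median of 185 CPM, and in activated ones from 96.3 to 224 CPM, with a median of 151 CPM. In mtDNA-NZB libraries it spread from 67.8 to 179 CPM (median 107 CPM) at rest and from 121 to 208 CPM (median 157 CPM) after activation. The fitted changes were -0.33 (standard error 0.28, adjusted p = 0.339) and 0.43 (standard error 0.29, adjusted p = 0.212). With 1 library left out the mtDNA-B6 value ran from -0.48 (without resting replicate 5) to -0.06 (without resting replicate 3), and the mtDNA-NZB value from 0.31 to 0.63. The difference of the responses was 0.76 (standard error 0.40, unadjusted p = 0.0676, adjusted p = 0.385).

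Libraries fell into 3 sets of 8 by the ratio of the second count table to the molecule counts, with unequal numbers from each group, so the changes were also read within sets. In the set with a ratio of 2.11 to 2.24, *Bnip3* averaged 2.17 CPM in 4 resting and was at 20.2 CPM in 1 activated mtDNA-B6 library, and *Egln3* stood at 7.61 and 50.7 CPM. *Hif1a* stood at 8.26 and 19.2 CPM and *Egln1* at 35.6 and 58.1 CPM in these libraries. In the same set *Hif1a* was at 11.7 CPM in 1 resting and averaged 22.1 CPM in 2 activated mtDNA-NZB libraries. In the set with a ratio of 2.68 to 2.80, *Bnip3* averaged 6.05 CPM in 4 resting and 25.2 CPM in 2 activated mtDNA-NZB libraries, *Egln3* 9.97 and 37.2 CPM, and *Hif1a* 19.2 and 19.1 CPM. The 4 resting libraries include the one of 51409 counts, and without it the resting means of 3 libraries were 2.42 CPM for *Bnip3*, 13.3 CPM for *Egln3* and 14.4 CPM for *Hif1a*. The set with a ratio of 1.88 to 1.96 held 0 resting mtDNA-B6 libraries. There *Hif1a* was at 17.8 CPM in 1 resting and averaged 22.5 CPM in 2 activated mtDNA-NZB libraries. With the set in the model, *Egln1*, *Egln3*, *Bnip3* and *Hif1a* passed in mtDNA-B6 cells and *Egln1*, *Egln3* and *Bnip3* in mtDNA-NZB cells.

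Between haplotypes, 0 of the 10 genes passed at rest, where 2.76% of all genes tested did (1.9% as higher in mtDNA-NZB and 0.861% as lower), and 0 after activation, where 0% did (edgeR). DESeq2 also gave 0 in each. At an unadjusted p under 0.05 there were 3 of the 10 genes at rest and 0 after activation, beside 2196 and 327 of all 10566 genes tested. At rest, *Hif1a* was at 8.77 ± 3.02 CPM in mtDNA-B6 and 17.7 ± 8.77 CPM in mtDNA-NZB libraries (SD, n = 6), a log2 difference of 0.75 (standard error 0.35, unadjusted p = 0.0423, adjusted p = 0.22). Without the library of 51409 counts the mtDNA-NZB mean was 14.5 ± 4.25 CPM (SD, n = 5). *Egln2* was at 102 ± 8.85 and 125 ± 13.5 CPM (SD, n = 6), with no overlap between the highest mtDNA-B6 library, at 112.9 CPM, and the lowest mtDNA-NZB library, at 113.3 CPM (log2 difference 0.29, standard error 0.10, unadjusted p = 0.00644, adjusted p = 0.0911). *Ddit4* was at 193 ± 98.6 and 110 ± 40.7 CPM (SD, n = 6; log2 difference -0.74, standard error 0.29, unadjusted p = 0.0167, adjusted p = 0.141). The 2 resting mtDNA-B6 libraries with a ratio of 2.68 to 2.80 had 88.1 and 90.6 CPM of *Ddit4*, against 163 to 329 CPM in the 4 others of that group.

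After activation the 4 genes with the clearest rises overlapped between haplotypes. The mtDNA-NZB minus mtDNA-B6 difference was 0.06 (95% interval -0.26 to 0.39) for *Egln1*, -0.26 (95% interval -0.86 to 0.34) for *Egln3*, -0.06 (95% interval -0.71 to 0.60) for *Bnip3* and -0.32 (95% interval -0.97 to 0.33) for *Hif1a*. For the difference of the responses 0 of the 10 genes passed (edgeR and DESeq2), as did 0% of all genes in edgeR's test. At an unadjusted p under 0.05 there were 2, *Hif1a* and *Egln2*, beside 1512 of all 10566 genes tested. The *Egln2* difference of responses was -0.38 (standard error 0.13, unadjusted p = 0.00849, adjusted p = 0.232).

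The activated libraries differed widely in these genes, and this spread was shared between some of them. Over the 12 activated libraries, Pearson's r of log2(CPM + 1) was computed for all 45 pairs of the 10 genes, and 38 pairs had a positive r. Permutation tests of r, adjusted over the 45 pairs, passed for 6 of them. *Egln1* and *Bnip3* had the highest r, 0.92 (two-sided permutation p = 5e-05, adjusted p = 0.00225), with Spearman's rho 0.93 (p = 3e-05, adjusted p = 0.00135). Their r was 0.88 without the 2 libraries farthest from the median of *Egln1*, 0.97 in the 6 mtDNA-B6 libraries and 0.81 in the 6 mtDNA-NZB libraries. It was 0.97 in the 7 libraries with a ratio of 1.88 to 1.96. The other sets hold too few activated libraries for a value.

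*Egln3* and *Bnip3* had r 0.79 (rho 0.83, adjusted p = 0.0251 and 0.018 by permutation, from p = 0.00279 and 0.0016), with 0.90 in each haplotype and 0.78 without the 2 farthest libraries. *Egln3* and *Vegfa* had r 0.85 (rho 0.85, adjusted p = 0.00877 and 0.0147 by permutation, from p = 0.00039 and 0.00098), although *Vegfa* did not pass on activation. *Ddit4* had r 0.83 with *Egln1* (rho 0.80, adjusted p = 0.015 and 0.0214 by permutation, from p = 0.001 and 0.00238) and 0.81 with *Bnip3* (rho 0.85, adjusted p = 0.0177 and 0.0147 by permutation, from p = 0.00157 and 0.00085). Without the 2 farthest libraries r was 0.81 for *Egln3* with *Vegfa*, 0.92 for *Egln1* with *Ddit4* and 0.79 for *Bnip3* with *Ddit4*. In the 7 libraries with a ratio of 1.88 to 1.96 these 3 values were 0.79, 0.81 and 0.83, and *Egln3* with *Bnip3* had 0.90. The sixth pair, *Vhl* with *Pdk1* (r 0.74, permutation p = 0.0047, adjusted p = 0.0352, rho 0.67, adjusted p = 0.0707), did not pass by rank and had r 0.37 in those 7 libraries. In the second count table, an alternative chosen after the data were seen, 2 pairs passed, *Egln1* with *Bnip3* (r 0.87) and *Egln1* with *Ddit4* (r 0.86). The number of pairs was 16, 10 and 12 without activated mtDNA-B6 replicate 1, 5 or 6, and 4 without mtDNA-B6 replicate 4 or mtDNA-NZB replicate 2, where *Egln3* with *Bnip3* did not pass.

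**Figure D3:**
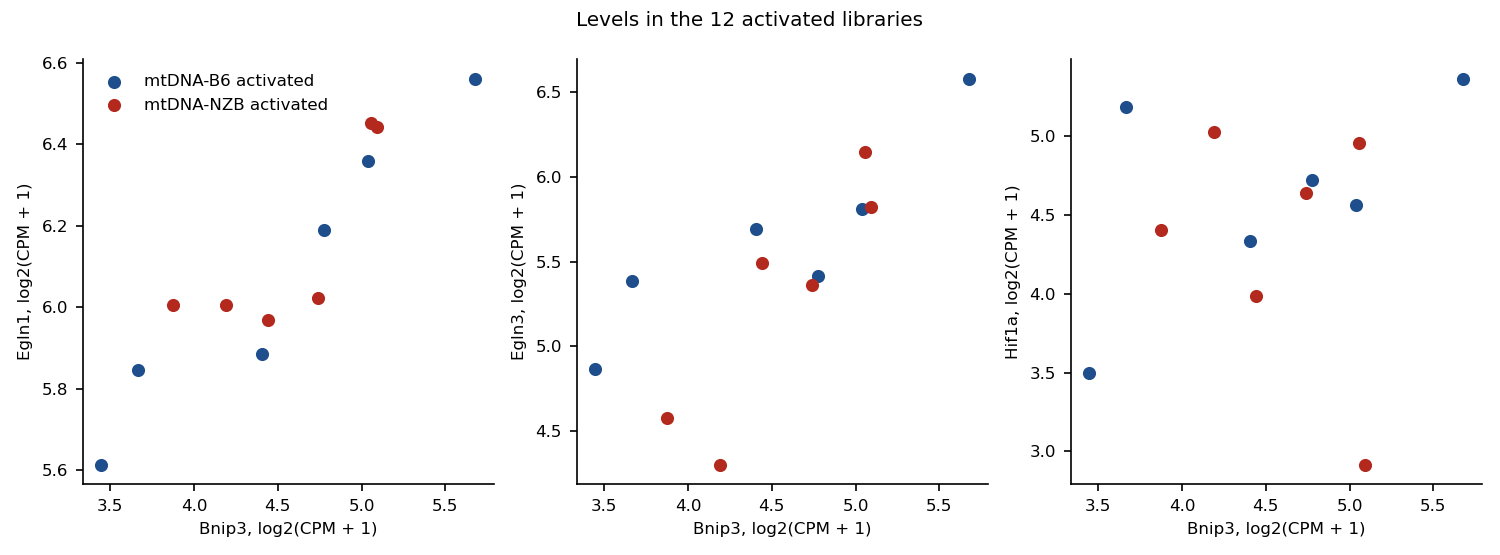
Levels of *Egln1*, *Egln3* and *Hif1a* (vertical axes) against *Bnip3* (horizontal axes), as log2(CPM + 1), in the 12 activated libraries, coloured by haplotype. Points for *Egln1* and *Egln3* rise together with *Bnip3* (r 0.92 and 0.79). Those for *Hif1a* have r 0.18 over the 12 libraries, 0.57 in the mtDNA-B6 and -0.34 in the mtDNA-NZB libraries.

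The *Hif1a* transcript itself was in none of the 6 pairs. Its r with the other 9 genes ran from -0.39 with *Pdk1* to 0.20 with *Ero1a*, and it was 0.19 with *Egln1* (permutation p = 0.561, adjusted p = 0.709), 0.13 with *Egln3* (p = 0.685, adjusted p = 0.79) and 0.18 with *Bnip3* (p = 0.583, adjusted p = 0.709). In the 6 mtDNA-B6 libraries these values were 0.68, 0.72 and 0.57, and in the 6 mtDNA-NZB libraries -0.34, -0.36 and -0.34, and the difference was not tested. Activated mtDNA-NZB replicate 3 had the lowest *Hif1a* of its group, 6.54 CPM from 20 molecules, and the highest *Bnip3*, *Pdk1*, *Ddit4* and *Ero1a*. Without it the r of *Hif1a* with *Egln1* was 0.64 (adjusted p = 0.106), and 0 pairs with *Hif1a* passed.

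The r of *Bnip3* with each other gene over the 12 activated libraries is given as a description, since these libraries differ in depth and in set. Of 10564 other genes, *Egln1* had the highest r with *Bnip3*, followed by *Ndrg1* (0.91), *Ankrd37* (0.88) and *Hilpda* (0.87), which are on the list of other HIF targets and were named after their values were seen. *Tpi1* and *Pfkp*, of glycolysis, were also among the 10 highest (0.84 and 0.83). The median r with *Bnip3* was 0.01 over all genes and 0.55 over the 19 glycolytic targets, and 0.398% of all genes had an r of at least 0.7. For *Egln1* the 3 highest were *Ndrg1*, *St6gal1* and *Bnip3*, and for *Egln3* the highest were the lactate exporter *Slc16a3* (0.93), *Kremen2* and *Ufsp2*. At rest, over the 11 libraries above 500000 counts, 0 of 45 pairs passed by permutation, with 5 at an unadjusted p under 0.05, and *Bnip3* with *Ddit4* had r -0.69 (p = 0.0194, adjusted p = 0.292). *Bnip3* was then counted from 3 to 29 molecules per library.

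By another measure of likeness, Pearson's r of log2 CPM over the 23 libraries above 500000 counts, the genes closest to *Hif1a* among 7555 genes were *Uba3* (0.92), *Actr3* (0.91), *Gdi2* (0.88), *Ccng1* (0.88) and *Tm9sf3* (0.88). None of the other 9 genes was among them.

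The wider pathway was read from 9 lists of genes by role, 2 of whose genes (*Hk2* and *Bnip3l*) stand on 2 lists. Each count is read against the shares of all genes tested, 22.4% higher and 24.5% lower in mtDNA-B6 and 25.2% higher and 28.4% lower in mtDNA-NZB cells. Most glycolytic targets of HIF rose. Of the 19 genes, activated mtDNA-B6 cells had 16 higher and 1 lower and activated mtDNA-NZB cells 14 higher and 1 lower, with a median log2 fold change of 1.76 and 1.64. *Tpi1* (triosephosphate isomerase) rose most in both haplotypes, from 83.7 ± 24.8 to 503 ± 97.6 CPM in mtDNA-B6 and from 75.7 ± 25.6 to 515 ± 102 CPM in mtDNA-NZB libraries (SD, n = 6; log2 fold change 2.58 and 2.91, standard error 0.19 and 0.20, adjusted p = 6.54e-11 and 2.36e-11). *Slc16a3*, which exports lactate, had 2.54 and 2.53, and *Ldha*, which makes it, 1.87 and 1.91. The exception was *Pfkfb4*, a regulator of phosphofructokinase, which fell by 1.57 in mtDNA-B6 and fell by 1.54 in mtDNA-NZB cells. The glucose transporter *Slc2a1* passed in mtDNA-B6 cells (0.58, adjusted p = 0.0266) and had 0.04 (adjusted p = 0.887) in mtDNA-NZB cells. *Gapdh* rose with a wide error (1.85, standard error 0.71, and 2.75, standard error 0.75) and is known for its many pseudogenes, which can share its reads.

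Of 24 other HIF targets tested, activated mtDNA-B6 cells had 8 higher and 4 lower and activated mtDNA-NZB cells 7 higher and 6 lower, which is near the shares of all genes in mtDNA-NZB cells, and the medians were 0.34 and 0.03. *Ankrd37* rose most (2.57, standard error 0.28, adjusted p = 7.85e-08, and 2.30, standard error 0.30, adjusted p = 7.76e-07). *Higd1a*, *Fam162a* and *Mif* rose in both haplotypes. *Cxcr4*, a chemokine receptor, had the lowest values, -3.16 and -3.33, and *Adm* (adrenomedullin) had -2.35 and -2.44. *Hilpda* and *Ndrg1*, whose levels followed *Bnip3* across the activated libraries, did not pass on activation (0.21 and 0.04 for *Hilpda*, 0.41 and -0.28 for *Ndrg1*).

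**Figure D4:**
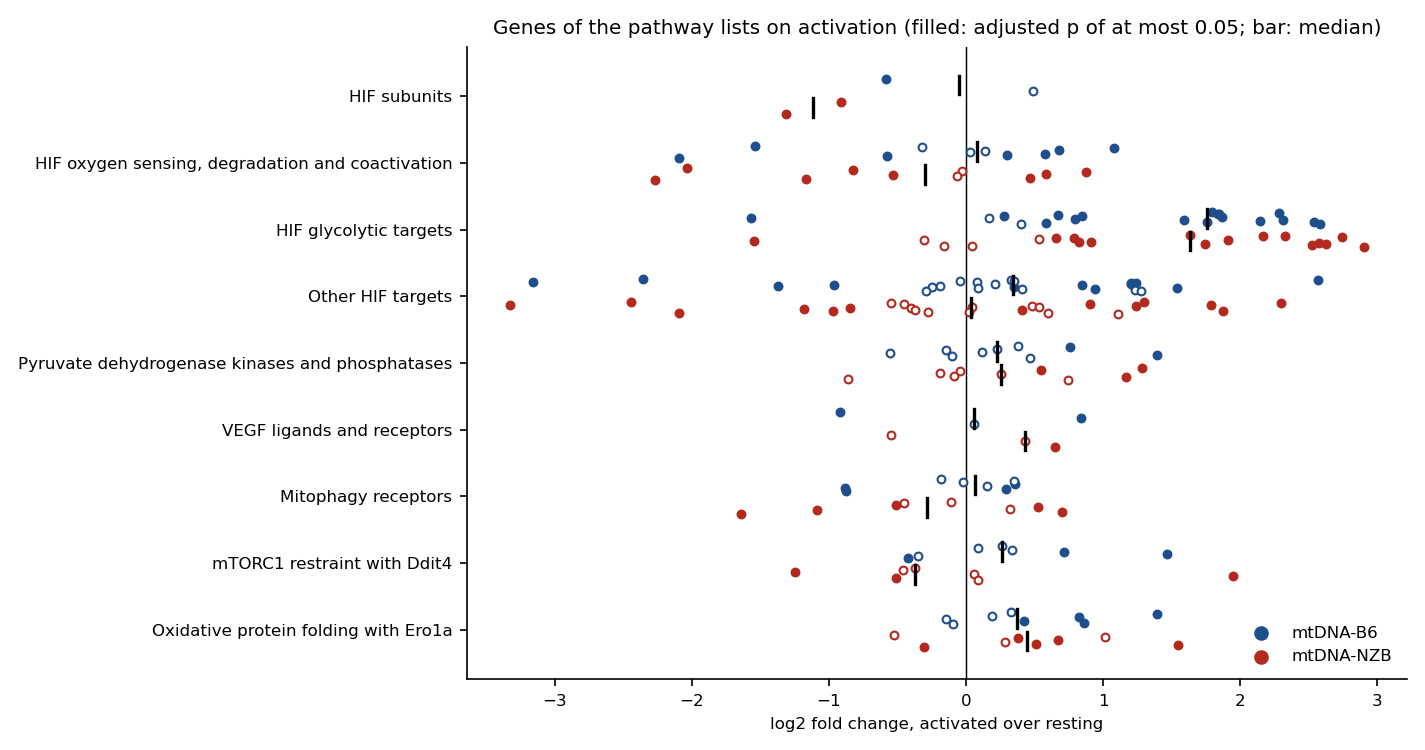
Log2 fold change of each tested gene on activation (horizontal axis) in mtDNA-B6 and mtDNA-NZB cells for the 9 lists (vertical axis), with points filled at an adjusted p of at most 0.05 and bars at the medians. The medians of the glycolytic targets are 1.76 and 1.64, and the other HIF targets spread to both sides of 0.

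The partners and regulators of HIF1A did not follow 1 direction. *Arnt*, which encodes the shared beta subunit, fell by 0.59 (standard error 0.14, adjusted p = 0.00153) in mtDNA-B6 and by 0.91 (standard error 0.15, adjusted p = 1.49e-05) in mtDNA-NZB cells. *Epas1*, which encodes HIF2A, had 0.49 (adjusted p = 0.36) in mtDNA-B6 cells and fell by 1.31 (adjusted p = 0.0134) in mtDNA-NZB cells, and *Arnt2* and *Hif3a* were too low to be tested. Resting mtDNA-NZB libraries were uneven in *Epas1*, at 18.3 ± 18.3 CPM, against 7.85 ± 5.36 CPM in activated ones (SD, n = 6). Of 10 genes of oxygen sensing, degradation and coactivation, 4 passed as higher and 3 as lower in mtDNA-B6 cells, against 3 and 5 in mtDNA-NZB cells. *Elob* and *Rbx1*, partners of VHL in its ligase, rose by 0.68 and 0.30 in mtDNA-B6 and by 0.88 and 0.46 in mtDNA-NZB cells. *Cul2*, the scaffold of that ligase, rose most in mtDNA-B6 cells (1.08, adjusted p = 0.00379) and had -0.03 in mtDNA-NZB cells. *Siah2*, a ligase that degrades PHD proteins, had the lowest values, -2.10 and -2.27, and *Cited2*, which competes with HIF1A for a coactivator, had -1.54 and -2.04, all passing. *Hif1an*, which encodes the asparagine hydroxylase FIH, rose in mtDNA-B6 cells (0.58, adjusted p = 0.00879) and had -0.06 in mtDNA-NZB cells.

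Relatives of the targets were read in the same way. Of the pyruvate dehydrogenase kinases, *Pdk3* rose in both haplotypes (1.39, standard error 0.20, adjusted p = 3.6e-06, and 1.17, standard error 0.22, adjusted p = 7.51e-05), whereas *Pdk1* did not pass and *Pdk2* had -0.55 (adjusted p = 0.108) and -0.09. Of 9 genes of that complex and its regulators, 2 rose in mtDNA-B6 and 3 in mtDNA-NZB cells and 0 fell, and *Dlat*, a core enzyme of the complex, rose most in mtDNA-NZB cells (1.29, adjusted p = 0.000455). Of 8 mitophagy receptors, 2 passed as higher and 2 as lower in mtDNA-B6 cells, against 2 and 3 in mtDNA-NZB cells. *Bnip3l*, the closest relative of *Bnip3*, had 0.35 (adjusted p = 0.287) and -0.45 (adjusted p = 0.184), *Fkbp8* rose by 0.35 and 0.53 and *Phb2* by 0.29 and 0.70. *Optn* had -0.89 and -1.09 and *Sqstm1* -0.87 and -1.64, all passing. Of 3 VEGF genes tested, *Vegfb* rose in mtDNA-NZB cells (0.65, adjusted p = 8.22e-05), and in mtDNA-B6 cells *Nrp2* rose (0.84, adjusted p = 0.0201) and *Nrp1* fell by 0.92. Of 7 genes that restrain or carry mTORC1 signalling with REDD1, *Tbc1d7*, a subunit of the TSC complex, rose most (1.46 and 1.95). In mtDNA-B6 cells 2 rose and 1 fell (*Tsc2*, -0.42), and in mtDNA-NZB cells 1 rose and 2 fell, *Sesn2* most (-1.24, adjusted p = 0.0171). The list of oxidative folding had 4 rises and 0 falls of 8 in mtDNA-B6 and 4 rises and 1 fall in mtDNA-NZB cells. *Gpx7* rose most in mtDNA-B6 cells (1.39, adjusted p = 0.0167), at low mean levels of 1.16 and 3.00 CPM. *Prdx4* rose by 0.86 in mtDNA-B6 cells and rose most in mtDNA-NZB cells (1.55, adjusted p = 2.88e-06). The paralog *Ero1b* had 0.33 and -0.53 and did not pass. Between haplotypes, 2 of the 88 distinct genes tested on these lists passed at rest, 2.27% beside 2.76% of all genes. They were *Rora* (1.27, adjusted p = 0.0486) and *Sqstm1* (0.73, adjusted p = 0.046), both higher in mtDNA-NZB cells, where the count over all genes was 0 without resting mtDNA-NZB replicate 5 and 1 with the library set in the model. Of these genes, 0 passed after activation or for the difference of responses.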

How the data were processed

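The 10 genes, the lists and the rule for named genes were chosen with earlier results of these data known. Sample groups were taken from the labels. RNA was sequenced by bulk MARS-seq. Per the labels and the methods, the authors trimmed reads with cutadapt, mapped them with STAR to 1000 bases at the 3′ end of GRCm39 genes (Ensembl 106), counted with HTSeq, removed duplicates by unique molecular identifier (UMI) and corrected for saturation. They deposited these whole-number counts per gene, used here, and a second table of larger counts, not described separately and used as an alternative. 1 column matched no sample and was not used. A count covers only the 3′ end, so overlapping or near-identical genes can share reads, and levels are not compared between genes.

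Analysis used R 4.3.3 with edgeR 4.0.16 (TMM scaling, filterByExpr, quasi-likelihood test, 4 groups in one fit, Benjamini-Hochberg adjustment over 10566 genes, no fold cut-off), DESeq2 1.42.0 as an alternative, and Python 3.11.15. The fit was tested on simulated counts. Standard errors were taken as the log2 fold change over the square root of F. CPM use TMM-scaled library sizes. Relations used 100000 permutations. Alternatives were other factors, filters, a fold cut-off, the second table, 12 or 21 libraries (without resting mtDNA-NZB replicates 2 and 6 and activated replicate 6), replicate blocks, the set of libraries as a term, and leaving out each library. No 2 libraries of a group were alike within counting error (lowest chi-square over its degrees of freedom, 2.97). Named genes are the 10 genes, the largest rise and fall of each list, close paralogs or partners, and the 5 genes most like *Hif1a*. Further names were chosen after their values were seen.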

Additional observations from a re-analysis of the deposited data

Results flagged for a closer look

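Over 40 sets of 6 libraries (10 genes in 4 groups), 2 held a library whose gap to the nearest other was above Dixon's 95% critical value of 0.625, and chance gives about 1 in 20. Activated mtDNA-B6 replicate 5 had 15.1 CPM of *Vhl*, against 19.3 to 21.4 CPM in the other 5 libraries. Resting mtDNA-NZB replicate 2 had 16.9 CPM of *Bnip3*, against 1.37 to 4.37 CPM, and this is 1 molecule in a library of 51409 counts.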

How the results depend on the processing

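The 5 calls in mtDNA-B6 and 3 in mtDNA-NZB cells kept their direction in every alternative fit. With a log2 fold change of at least 1 also required, 3 genes passed in mtDNA-B6 (*Hif1a*, *Egln3* and *Bnip3*) and 2 in mtDNA-NZB cells. In the other fits *Egln2* was the only one of these calls lost, and *Ero1a* was gained without activated mtDNA-B6 replicate 6 or resting replicate 1. With 1 library left out the count was 4 to 5 in mtDNA-B6 and 3 to 3 in mtDNA-NZB cells, and 0 to 0 in the other comparisons. The number of pairs that varied together over the activated libraries was 2 in the second count table and 4 to 16 with 1 library left out. These relations, their alternatives and the fits that join 21 libraries with a block or with the library set were chosen after the data were seen. The cause of these changes was not tested.

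Resting and activated libraries share a label number in 5 mtDNA-B6 and 4 mtDNA-NZB pairs. The correlation of their deviations from the group means ran from -0.16 to 0.25. It was above 0.1 in 3 of the 5 mtDNA-B6 pairs and in 0 of the 4 mtDNA-NZB pairs. The numbers were not taken to pair the samples, but low correlations cannot exclude that they do. The methods describe a division of the isolated cells into resting and activated groups. With this number as a replicate block, 4 genes passed in each haplotype, since *Egln2* was lost in mtDNA-B6 cells (0.25, adjusted p = 0.0817) and *Ddit4* passed in mtDNA-NZB cells (0.68, adjusted p = 0.00901). Over 21 libraries the blocked *Ddit4* value was 0.77 (adjusted p = 0.0075). With the title number as a block 4 and 3 genes passed. The *Hif1a* difference of responses was -0.62 (unadjusted p = 0.317) with the label number as a block and ran from -1.24 to -0.87 with 1 library left out.

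Over all genes, the number that passed between haplotypes at rest was 292, and it ran from 0 (without resting mtDNA-NZB replicate 5) to 587 (without its replicate 3). It was 180 by DESeq2, 107 with the fold cut-off, 43 in the second table, 0 over the 12 resting libraries alone, 662 over 21 libraries, 72 with the title number as a block and 1 with the library set in the model. The difference of responses gave 0 genes, 1 by DESeq2, 113 over 21 libraries and 8 when these were blocked by label number. The fold cut-off left 1868 of 4958 genes on activation in mtDNA-B6 and 2474 of 5658 in mtDNA-NZB cells. Depth limits *Bnip3*, which had 1 to 29 molecules in a resting library.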
